A study of Mus musculus with 21 samples.

Results

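Mice that ate a high-fat diet with the spore-forming bacterium Bacillus coagulans were compared with mice on a normal diet, and the question was which effects of high-fat feeding on gene expression in fat remained in the presence of the bacterium. The comparison used 3 arrays titled E_BC and 3 titled E_ND, which is 6 of the 21 arrays of the series, chosen by their titles. It covered 16248 genes, each represented by the probe with the highest mean among the probes that name that gene alone. BC mice received a high-fat diet, with 40% of energy from fat, that held 0.3% (w/w) Bacillus coagulans. ND mice were fed a normal diet, in which fat gave 10% of the energy. Another group of 3 arrays, HFD, from mice on the same high-fat diet with no supplement, was used to tell which differences were effects of the diet. All were male C57BL/6J mice, housed singly, that arrived at an age of 4 weeks, were acclimated for 1 week and stayed on their diets for 12 weeks, with 10 mice stated per group. The tissue was the epididymal pad, a visceral fat depot that lies along the testis.

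As background, fat pads that enlarge on a high-fat diet are known to gain macrophages, which gather around dying fat cells, take up their lipid and express genes of lysosomes and lipid handling. Adipocytes of such pads are known to lower their own synthesis of fatty acids, and the matrix around them is remodelled. Bacillus coagulans is used as a probiotic: its spores survive the stomach and germinate in the gut.

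Values were deposited on a log scale that was not stated and was taken as log2 from its range, so a difference of 1 unit is a doubling or halving. The 3 BC arrays had medians of 4.33, 4.27 and 4.32 over all probes and the 3 ND arrays had medians of 4.32, 4.36 and 4.39. Correlations between any pair of the 21 arrays lay between 0.971 and 0.994. One array stood apart: ND array 9 had the lowest estimated array weight of all 21 (0.208, against 0.947 to 1.06 in BC and 0.975 and 1.46 in the other ND arrays) and the narrowest spread over probes of these 6 arrays (SD 1.82, against 1.95 to 1.97 in BC arrays and 1.92 and 1.94 in the other ND arrays). Many of the counts that follow are therefore given with and without ND array 9, and without it 1.41% of all genes rose in BC and 0.88% fell. The defining adipocyte markers that were measured, Adipoq and Fabp4, lay at log2 levels of 9.26 to 9.56 and 12.2 to 12.3 in BC arrays and 9.24 to 9.80 and 12.2 to 12.3 in ND arrays. The 7 measured genes of the epididymal duct, the neighbouring tissue, averaged 2.65 ± 0.08 in BC and 2.70 ± 0.17 in ND (SD, n = 3 each). The table was held in part: on chromosomes 7, 8, 9, X and Y together 17 protein-coding genes were measured and on chromosome 6 42% of them, and the others were not analysed here.

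In BC against ND, Slc6a6 (taurine transport), Igfbp3 (growth factor binding), Thbs2 (matrix) and Ctsl (lysosomal proteolysis) were among the genes that rose, and the acute-phase gene Orm3 fell most. The test was limma on the log2 levels of all 21 arrays, which share 1 estimate of the spread, with Benjamini-Hochberg adjustment over all genes and a threshold of 0.05. In all, 18 of 16248 genes passed (0.111%), of which 15 were higher in BC (0.0923%) and 3 were lower in BC (0.0185%). At an unadjusted p under 0.05 there were 2454 genes, or 15.1%. The 3 BC arrays lay wholly above the 3 ND arrays in 9.15% of genes and wholly below them in 7.49%, and in all 18 genes that passed the arrays of the groups did not overlap. The labels do not say that the arrays of a group come from separate animals, so p-values measure the spread between these arrays, which may be technical. In whole tissue, fewer cells of a type and less RNA per cell cannot be told apart.

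**Figure D1:**
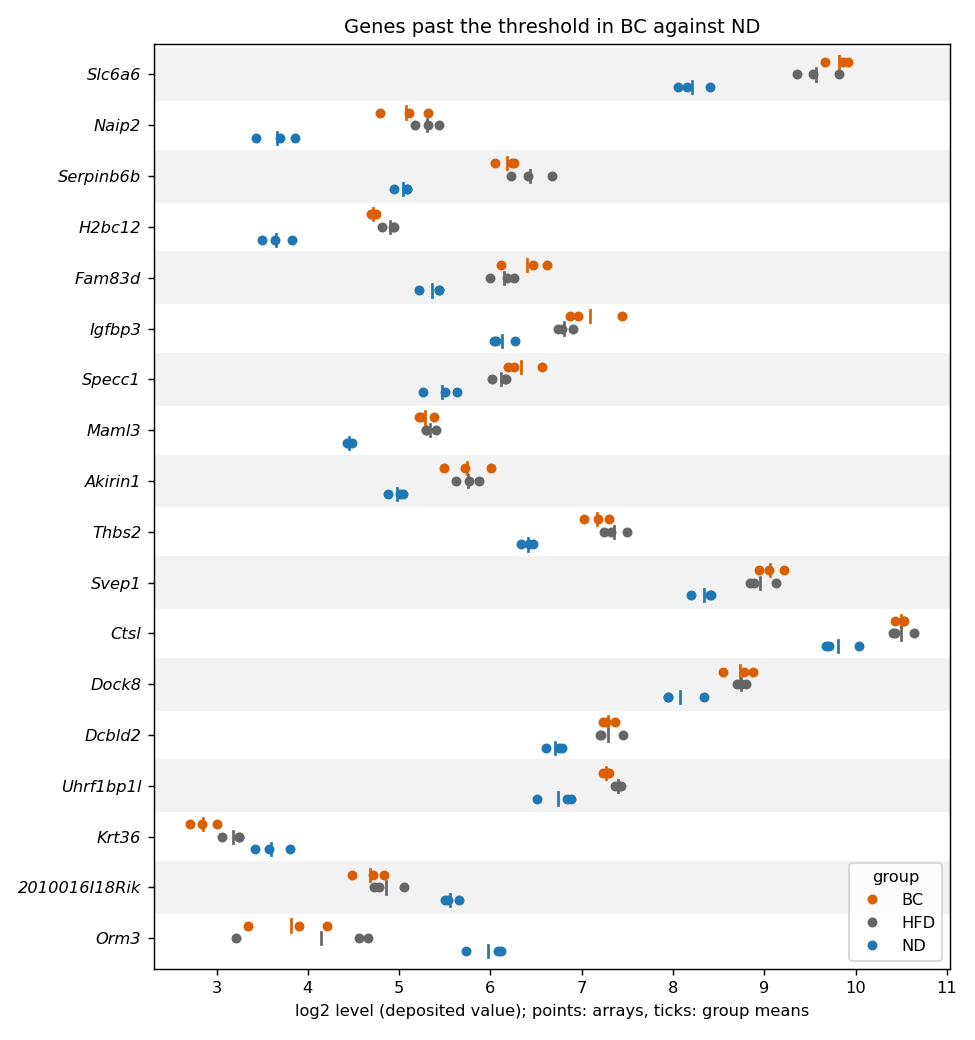
Log2 levels (horizontal axis) of the 18 genes past the threshold in BC against ND. Each point is 1 array, with BC arrays in orange, HFD arrays in grey and ND arrays in blue, and ticks are group means. In every gene the BC points lie apart from the ND points, and the HFD points lie on the BC side in 17 of them and between the groups in Krt36.

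The largest rise among the genes that passed was that of Slc6a6, the taurine transporter of the cell membrane (chromosome 6). Its log2 level was 9.86, 9.67 and 9.91 in BC arrays 4, 7 and 11, against 8.16, 8.05 and 8.40 in ND arrays 6, 8 and 9. The lowest BC array lay more than 1 log2 unit above the highest ND array. The BC minus ND difference was 1.61 ± 0.22 (log2, ± SE), which is 3.05-fold (limma adjusted p = 0.0041). It passed in 5 of the 6 fits that left out 1 BC or ND array and not without ND array 8 (adjusted p = 0.0538).

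Naip2, whose protein senses bacterial components and starts inflammasome assembly, had log2 levels of 5.10, 5.32 and 4.79 in BC arrays and 3.43, 3.86 and 3.70 in ND arrays. All BC arrays were high and all ND arrays low, with a gap of nearly 1 unit between them. It rose by 1.41 ± 0.23, or 2.65-fold (adjusted p = 0.0137). Its family has closely similar members on chromosome 13, so the probe may read another member. Leaving out ND array 6, ND array 8, BC array 4 or BC array 7 ended the call, with an adjusted p of at most 0.0964.

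Thbs2, a matricellular thrombospondin that regulates collagen assembly and blood vessel growth, had the smallest p. Its log2 level was 7.02, 7.30 and 7.18 in BC arrays against 6.43, 6.47 and 6.34 in ND arrays. The spread within each group was narrow beside the difference, which was 0.75 ± 0.10 or 1.69-fold (adjusted p = 0.00242). It was the 1 gene of the 18 that passed in every fit that left out 1 array, with an adjusted p of at most 0.0251. In a fit of the BC and ND arrays alone it did not pass (the 5 that then passed of the 18 were Slc6a6, Naip2, Orm3, Serpinb6b and H2bc12).

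Igfbp3, which encodes a carrier of insulin-like growth factors, had log2 levels of 7.44, 6.88 and 6.96 in BC arrays and 6.04, 6.07 and 6.27 in ND arrays. BC array 4 was the highest, and the other BC arrays still lay above every ND array. It rose by 0.97 ± 0.14, or 1.96-fold (adjusted p = 0.00839), and lost the call without ND array 8 or BC array 4 (adjusted p of at most 0.0753). Specc1, a gene of the cytospin family, rose by 0.87 ± 0.14 (adjusted p = 0.0137), with BC arrays between 6.20 and 6.56 and ND arrays between 5.27 and 5.63. Its call was lost without ND array 6, ND array 8 or BC array 4, with an adjusted p again of at most 0.0753.

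Ctsl, which encodes the lysosomal protease cathepsin L, had log2 levels of 10.43, 10.53 and 10.52 in BC arrays and 9.71, 9.68 and 10.04 in ND arrays. ND array 9 was the nearest to the BC arrays. It rose by 0.69 ± 0.13, or 1.61-fold, close to the threshold (adjusted p = 0.0464). Of the 6 fits that left out 1 array it passed in 1, that without ND array 9 (0.80, adjusted p = 0.00505), and the highest adjusted p of the others was 0.21. After quantile normalization or median centring Ctsl lost the call, as Dock8 did. Over 15 alternative fits, those that left out 1 array included, Ctsl passed in 3, the fewest of the 18 genes.

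The other 9 genes that rose differed by 0.53 to 1.14 log2 units, with adjusted p between 0.0209 and 0.0464. Serpinb6b, a serpin protease inhibitor, had log2 levels of 6.24, 6.26 and 6.05 in BC arrays and 5.08, 5.08 and 4.95 in ND arrays, a difference of 1.14 ± 0.22. The histone gene H2bc12 had a difference of 1.06 ± 0.20, with BC arrays between 4.69 and 4.75 and ND arrays between 3.50 and 3.83. For both, other members of the family are so similar that the gene read is uncertain. Fam83d, which acts at the mitotic spindle, rose by 1.04 ± 0.19, and Maml3, a coactivator of Notch signalling, by 0.82 ± 0.15. Akirin1, a nuclear protein, rose by 0.76 ± 0.13, and Svep1, a large extracellular matrix protein read by 2 probes, by 0.73 ± 0.14. When the mean of probes was used Svep1 did not pass (adjusted p of at most 0.0821). Dock8, a guanine exchange factor that leukocytes need for migration, rose by 0.66 ± 0.13, the membrane protein gene Dcbld2 by 0.58 ± 0.11, and Uhrf1bp1l by 0.53 ± 0.10. Of these 9 genes, Akirin1, Fam83d and Uhrf1bp1l each passed in 2 of the 6 fits that left out 1 array and the other 6 passed in 1 each, that without ND array 9. The highest adjusted p over those fits was 0.193 for Uhrf1bp1l and Svep1.

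Orm3 showed the largest difference of the 18 genes. It encodes an orosomucoid, an acute-phase plasma protein, and lies on chromosome 4. The log2 level was 3.90, 4.21 and 3.34 in BC arrays and 6.12, 6.08 and 5.73 in ND arrays. All BC arrays were at least 1.5 units below all ND arrays, though they differed more among themselves than the ND arrays did. The BC levels lay below the medians of their arrays, and the ND levels above theirs. Orm3 fell by 2.16 ± 0.37 on the log2 scale, a 4.47-fold difference (adjusted p = 0.0209). The call was lost without ND array 6, ND array 8, BC array 4 or BC array 11 (adjusted p of at most 0.145), and Orm1 and Orm2 are close copies of Orm3 in sequence. Their own probes gave BC minus ND differences of -0.21 (adjusted p = 0.621) for Orm1 and -0.48 (adjusted p = 0.532) for Orm2.

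Krt36, a hair keratin, fell by 0.75 ± 0.13 on the log2 scale (adjusted p = 0.0343), with BC arrays at 2.85, 2.71 and 3.004 and ND arrays at 3.42, 3.81 and 3.57. These levels lay below the median of every array. The remaining gene that fell was the RIKEN clone gene 2010016I18Rik, which lies outside the rule for named genes and is named here after its values were seen. It had log2 levels between 4.49 and 4.83 in BC arrays and between 5.50 and 5.65 in ND arrays, a difference of -0.89 ± 0.17. Krt36 passed in 2 and 2010016I18Rik in 1 of the 6 fits that left out 1 array, with an adjusted p of at most 0.132 and 0.211. Next in order of p among falls, and not past the threshold, were Ccdc69 (-0.57, adjusted p = 0.0612), the vomeronasal receptor gene Vmn1r238 (-1.07, adjusted p = 0.0612) and Dok5, a docking protein of receptor tyrosine kinases (-0.59, adjusted p = 0.0622). The levels of Vmn1r238 also lay below the median of every array.

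The promoters of Orm3 (the largest fall), Thbs2 (the smallest p) and Ctsl (the lysosomal protease) are shown because acute-phase and immune genes are known targets of C/EBP and AP-1 factors. Each runs from 250 bases before to 50 bases after the start of the gene, in RefSeq for GRCm38.p6. Capitals mark matches, on either strand, to a C/EBP-type motif (TTGCNNAA), an AP-1 motif (TGANTCA) and a TATA motif (TATAAA), and no matches overlap.
Orm3, chr4:63355908-63356207, plus strand: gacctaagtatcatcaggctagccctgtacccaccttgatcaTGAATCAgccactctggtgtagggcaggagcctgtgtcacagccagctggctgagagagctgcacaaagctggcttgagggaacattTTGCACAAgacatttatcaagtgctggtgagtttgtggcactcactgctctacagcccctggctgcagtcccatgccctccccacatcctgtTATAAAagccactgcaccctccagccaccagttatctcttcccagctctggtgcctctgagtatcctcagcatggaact
Thbs2, chr17:14694213-14694512, minus strand: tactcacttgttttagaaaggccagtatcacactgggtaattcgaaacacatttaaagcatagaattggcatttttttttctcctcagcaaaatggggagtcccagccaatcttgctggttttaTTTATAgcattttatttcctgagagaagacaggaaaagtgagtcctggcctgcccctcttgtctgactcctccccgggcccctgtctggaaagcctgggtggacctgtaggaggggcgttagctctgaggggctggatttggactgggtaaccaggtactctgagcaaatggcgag
Ctsl, chr13:64370471-64370770, minus strand: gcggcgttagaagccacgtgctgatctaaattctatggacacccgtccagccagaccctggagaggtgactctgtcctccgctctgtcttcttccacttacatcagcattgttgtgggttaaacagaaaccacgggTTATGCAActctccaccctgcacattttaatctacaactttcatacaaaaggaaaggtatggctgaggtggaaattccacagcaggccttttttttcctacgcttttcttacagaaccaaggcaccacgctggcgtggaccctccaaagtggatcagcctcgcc
Orm3 held all 3 motifs, with TATAAA beginning 29 bases before the start and TTGCACAA beginning 121 bases before it. Thbs2 held a TATA match alone, on the other strand, 126 bases before the start, and Ctsl a C/EBP-type match alone. Of the 18 genes, 17 had an entry. The C/EBP-type motif was present in 4 of the 17, against 10.8% of all 32851 promoters in the table, AP-1 in 2 against 7.81%, and TATAAA in 5 against 13.6%. A match describes these letters only.

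Of the effects of high-fat feeding, 17 passed in BC as well. In HFD against ND, 1403 genes passed (8.63%), 1063 higher in HFD (6.54%) and 340 lower in HFD (2.09%). Among these, 17 passed with the same sign in BC against ND, 15 higher and 2 lower, and 1386 did not pass in BC against ND. Both comparisons use the same 3 ND arrays, so what they have in common is in part the ND arrays themselves. The direct comparison of BC with HFD found no gene past the threshold (0 of 16248, smallest adjusted p = 0.363), with 841 genes, or 5.18%, at an unadjusted p under 0.05. The 1386 genes are therefore not shown to differ between BC and HFD. A missed threshold in BC against HFD likewise does not show that the groups were alike, and the intervals of the difference are given for that reason.

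The differences of these genes from ND in the 2 high-fat groups are given side by side. Slc6a6 differed from ND by 1.61 in BC and 1.36 in HFD, and its BC minus HFD difference was 0.25 (95% interval -0.22 to 0.71). Thbs2 differed by 0.75 in BC and 0.94 in HFD, with a BC minus HFD interval of -0.39 to 0.01. Naip2 differed by 1.41 in BC and 1.64 in HFD, with an interval of -0.71 to 0.24. Ctsl, Dcbld2, Dock8 and Akirin1 had BC minus HFD differences between -0.02 and 0.00, and their intervals lay within -0.28 and 0.28. Orm3 differed by -2.16 in BC and -1.83 in HFD, and its BC minus HFD interval, -1.09 to 0.44, was the widest of the 17. Igfbp3 had the largest positive BC minus HFD difference of these genes, 0.28 (-0.02 to 0.59).

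Krt36 was the 1 gene that passed in BC against ND and not in HFD against ND. Its HFD arrays lay at 3.24, 3.25 and 3.06, between the BC and the ND arrays. The HFD minus ND difference was -0.42 (adjusted p = 0.0556) and the BC minus HFD difference was -0.33 (95% interval -0.61 to -0.05, adjusted p = 0.917). It is thus not shown to differ between BC and HFD after adjustment.

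The number of genes that passed in BC against ND depended on single arrays. Without ND array 9 it was 372, of which 229 were higher in BC (1.41%) and 143 lower in BC (0.88%), and all 18 genes were among them. Of the 372 genes, 255 were also among the 1403 of HFD against ND with all arrays. Without ND array 8 the count was 1 (Thbs2), without ND array 6 it was 7, without BC array 4 it was 3, and without BC array 7 or BC array 11 it was 6. The number of high-fat effects that also passed in BC was 341 without ND array 9 and between 1 and 11 without any other single array. ND array 9 lay farther from the mean of the BC arrays over all genes (root mean square 0.390 log2 units) than ND arrays 6 and 8 (0.295 and 0.308), while in macrophage genes it lay nearest to them, as shown next. What set ND array 9 apart was not tested.

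**Figure D2:**
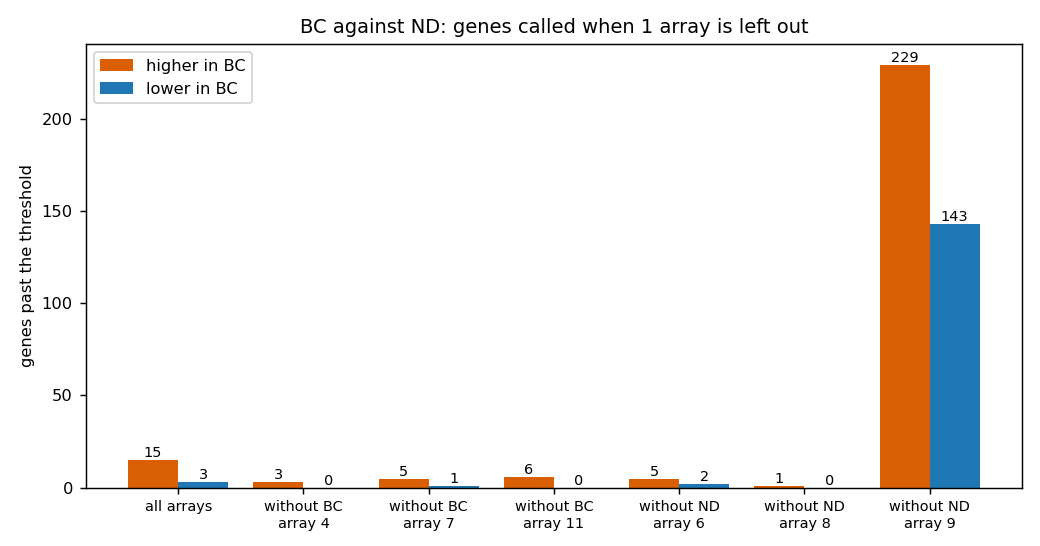
Number of genes past the threshold in BC against ND (vertical axis) with all arrays and with each BC or ND array left out. Orange bars are genes higher in BC and blue bars genes lower in BC. The count of 18 became 372 without ND array 9 and lay between 1 and 7 without any other array.

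Macrophage genes were on average higher in BC than in ND, with 0 of 12 past the limma threshold and 10 at an unadjusted p under 0.05 (15.1% of all genes). The 12 measured genes of the macrophage list had a median BC minus ND difference of 0.69, against -0.01 over all genes tested, and 8 of the 12 had BC arrays wholly above ND arrays (9.15% of all genes did). Their mean log2 level was 7.94, 8.52 and 8.32 in BC arrays 4, 7 and 11, against 7.34, 7.27 and 7.84 in ND arrays 6, 8 and 9. The BC arrays were all above the ND arrays, with ND array 9 close to BC array 4. In HFD arrays the mean level was 8.60, 8.85 and 8.62. In HFD against ND the median difference was 1.15 and 11 of the 12 rose (6.54% of all genes did). The median BC minus HFD difference was -0.43, with 0 genes past the threshold and 2 at an unadjusted p under 0.05 (5.18% of all genes).

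Among single macrophage genes, Fcgr1, a receptor for immunoglobulin G, had log2 levels of 6.78, 7.57 and 7.14 in BC arrays and 5.69, 5.56 and 6.13 in ND arrays, a difference of 1.37 ± 0.31 (adjusted p = 0.0674). Ms4a7, a tetraspan protein of macrophages, had a difference of 1.36 ± 0.32 (adjusted p = 0.0685). Cd68, a glycoprotein of macrophage lysosomes, lay at 10.53, 11.08 and 10.65 in BC arrays and at 9.22, 9.13 and 10.38 in ND arrays, a difference of 1.18 (adjusted p = 0.0818). For Adgre1, an adhesion receptor used as a macrophage marker, the difference was 1.12 (adjusted p = 0.107), and ND array 9, at 8.59, lay above BC array 4, at 8.54. When ND array 9 was left out all 4 passed, with differences of 1.54, 1.56, 1.58 and 1.51 and adjusted p of 0.0238, 0.0212, 0.00469 and 0.0118. In that fit 5 of the 12 genes of the list rose. ND array 9 was the ND array nearest to BC in all 4 genes, so leaving it out enlarges the differences. Without any other single BC or ND array none of these 4 genes passed.

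The genes of lipid-associated macrophages, the cells that clear lipid from dying adipocytes, had the highest list median in BC minus ND. Over 12 measured genes it was 0.80 in BC minus ND and 1.10 in HFD minus ND, and 9 of the 12 had BC arrays wholly above ND arrays (9.15% of all genes). In BC against ND 0 passed by limma, with 10 at an unadjusted p under 0.05 (15.1% of all genes), and in HFD against ND 10 rose (6.54% of all genes). Tm4sf19, a tetraspan protein, had log2 levels of 8.29, 8.99 and 8.66 in BC arrays and 5.85, 5.64 and 7.79 in ND arrays. Its difference of 2.22 ± 0.44, or 4.67-fold, was the largest positive one of all genes tested, and narrowly missed the threshold (adjusted p = 0.0534). ND array 9 lay about 2 units above the other ND arrays, so that the spread in ND was wide.

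ND array 9 also lay near the BC arrays in other genes of that list. Atp6v0d2, a subunit of the proton pump of lysosomes, lay at 9.42, 10.24 and 9.60 in BC arrays and at 7.55, 7.15 and 9.20 in ND arrays (1.79, adjusted p = 0.0741). Gpnmb, a glycoprotein of lysosome-rich macrophages, lay at 10.41, 11.01 and 10.88 in BC arrays and at 8.45, 7.95 and 10.57 in ND arrays (1.78, adjusted p = 0.0818), so the groups overlapped in ND array 9. Lgals3, a galectin, had a difference of 0.74 (adjusted p = 0.0765). Leaving out ND array 9 made these differences 2.90 for Tm4sf19, 2.41 for Atp6v0d2, 2.57 for Gpnmb and 0.97 for Lgals3, with adjusted p between 0.000603 and 0.00598. In that fit 8 of the 12 rose, and the list median was 1.04.

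Lysosome genes, among them Ctsl, overlap in function with the macrophage lists. The 8 measured genes had a median difference of 0.65 in BC minus ND and 0.88 in HFD minus ND. In BC against ND 1 rose, Ctsl (0.0923% of all genes did), and in HFD against ND 7 rose (6.54% of all genes). Npc1, which exports cholesterol from lysosomes, had log2 levels of 7.61, 7.91 and 7.76 in BC arrays and 7.08, 7.19 and 7.13 in ND arrays. Here ND array 9 did not stand apart, and the difference of 0.62 had an adjusted p of 0.0785, and of 0.0599 without ND array 9. Atp6v1a, another proton pump subunit, had a difference of 0.70 (adjusted p = 0.103), and of 0.85 without ND array 9 (adjusted p = 0.0334). Without that array 5 of the 8 genes rose.

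**Figure D3:**
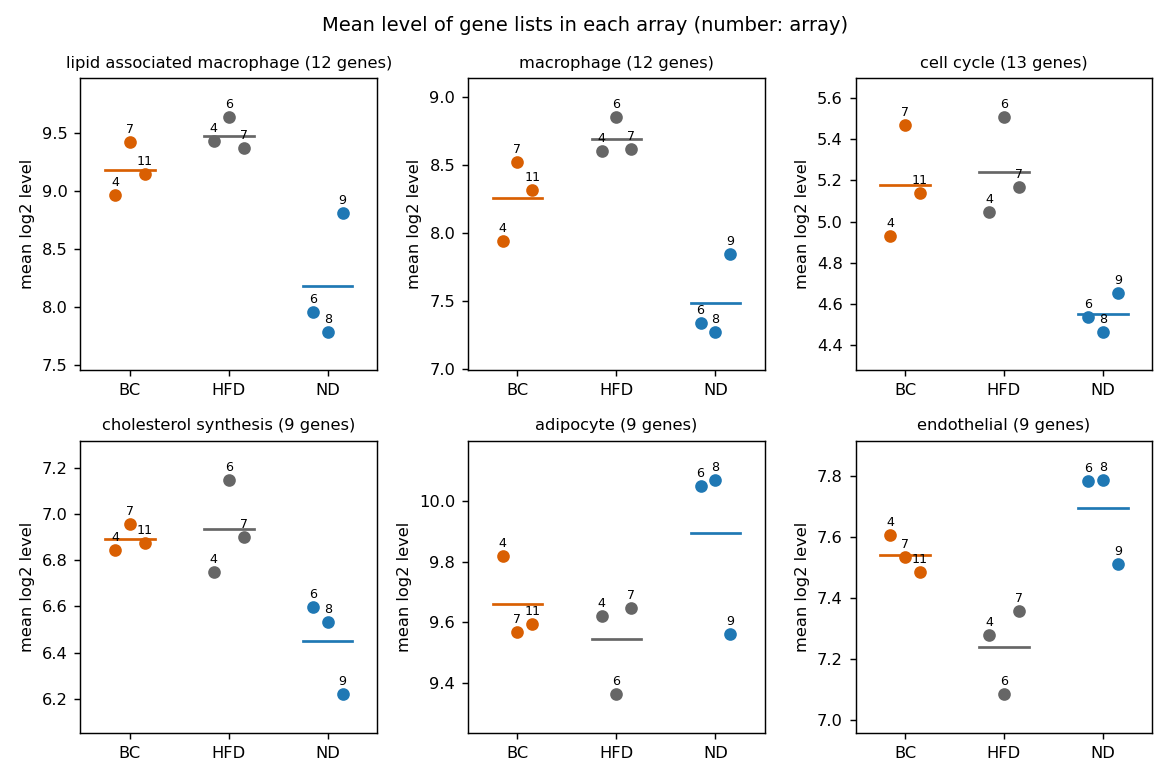
Mean log2 level of 6 gene lists in each array (vertical axes), for BC, HFD and ND arrays from left to right. Numbers give the array and bars the group mean. ND array 9 stands above the other ND arrays in macrophage lists and below them in the adipocyte and endothelial lists, while the BC arrays lie above all ND arrays in the macrophage, lipid-associated macrophage, cell cycle and cholesterol lists.

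Genes that sense bacterial products were looked at because of the supplement. The 10 measured members had a median BC minus ND difference of 0.33, and of 0.35 in HFD minus ND. The median BC minus HFD difference was -0.24, with 0 past the threshold. In 5 of the 10 the BC arrays lay wholly below the HFD arrays (7.35% of all genes), and in 1 wholly above (7.11%). In BC against ND 0 passed, with 4 at an unadjusted p under 0.05 (15.1% of all genes), while 5 rose in HFD against ND (6.54% of all genes). Ly96, the MD-2 coreceptor with which Tlr4 binds endotoxin, lay at 7.89, 7.87 and 7.72 in BC arrays, at 8.44, 8.60 and 8.56 in HFD arrays and at 7.20, 6.87 and 6.92 in ND arrays. The BC arrays thus stood between the HFD and the ND arrays with no overlap on either side. Over all genes the BC arrays lay wholly above the HFD arrays in 7.11% and wholly below them in 7.35%. The BC minus ND difference was 0.83 (adjusted p = 0.0927), the HFD minus ND difference was 1.54 (adjusted p = 0.00309), and the BC minus HFD difference was -0.71 (95% interval -1.17 to -0.24, adjusted p = 0.917).

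Values of the toll-like receptors differed. Tlr6 and Tlr1, which pair with Tlr2 to bind bacterial lipopeptides, had differences of 0.74 (adjusted p = 0.0873) and 1.17 (adjusted p = 0.114) in BC minus ND. Tlr6 passed without ND array 9 (0.88, adjusted p = 0.027) and Tlr1 did not (adjusted p = 0.0537). Tlr4, the endotoxin receptor, lay at 6.58, 6.68 and 6.47 in BC arrays and at 6.24, 6.49 and 6.35 in ND arrays, and the groups overlapped (0.22, adjusted p = 0.417). Lbp, a carrier of endotoxin, had a difference of 0.45 (adjusted p = 0.293), and of 0.23 without ND array 9 (adjusted p = 0.648). In that fit 1 of the 10 genes rose, Tlr6, and the list median was 0.23.

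Of 16 measured cytokine and chemokine genes, 0 passed in BC against ND and 7 had an unadjusted p under 0.05 (15.1% of all genes). In HFD against ND 5 rose (6.54% of all genes), and the medians were 0.08 in BC minus ND and 0.13 in HFD minus ND. Ccl2, the chemokine that draws monocytes into fat, lay at 6.58, 6.57 and 6.83 in BC arrays and at 5.40, 5.23 and 5.75 in ND arrays. The groups were apart by more than 0.8 units, and the difference of 1.20 ± 0.25 missed the threshold (adjusted p = 0.0573), which it passed without ND array 9 (1.35, adjusted p = 0.0124). Its HFD minus ND difference was 1.28. Ccl3, another macrophage chemokine, had a difference of 1.17 (adjusted p = 0.139), Il1rn, the natural antagonist of interleukin 1, of 1.00 (adjusted p = 0.0927) and Tnf of 0.50 (adjusted p = 0.262). Il1b and Il6 lay below the array medians, with overlapping groups and differences of -0.00 and -0.10. Leaving out ND array 9 brought 2 of the 16 past the threshold, Ccl2 and Il1rn (1.20, adjusted p = 0.0301), with a list median of 0.11.

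Matrix genes were mixed. Of the 13 measured genes of matrix remodelling 1 rose in BC against ND, Thbs2 (0.0923% of all genes did), and 6 rose in HFD against ND (6.54%). The medians were 0.29 in BC minus ND and 0.51 in HFD minus ND. Mmp14, a membrane-bound collagenase, lay at 8.33, 8.65 and 8.67 in BC arrays and at 7.85, 7.69 and 7.94 in ND arrays (0.72, adjusted p = 0.0622). Lum, the proteoglycan lumican, had a difference of 1.01 (adjusted p = 0.0838). Both passed without ND array 9 (0.78 and 1.14, adjusted p = 0.0241 and 0.0403). Lox, the enzyme that cross-links collagen, differed by 0.94 in BC minus ND (adjusted p = 0.0818) and by 0.62 in HFD minus ND (adjusted p = 0.0973). It differed less without ND array 9 (0.57, adjusted p = 0.124), in which it was lowest. Of the 11 measured collagen genes 0 passed in BC against ND and 5 had an unadjusted p under 0.05 (15.1% of all genes). Their median was 0.17, and Col1a2 had the smallest p (0.52, adjusted p = 0.0986). In the fit without ND array 9 Col1a1, a chain of the main fibrillar collagen, rose (0.69, adjusted p = 0.0478), the 1 of these 11 to pass, and the median was 0.20.

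Cell division genes were higher in BC arrays as a group, with 0 past the threshold and 11 at an unadjusted p under 0.05 (15.1% of all genes). All 13 measured members had a positive BC minus ND difference, the median was 0.62, and 8 had BC arrays wholly above ND arrays (9.15% of all genes). The mean level was 4.93, 5.47 and 5.14 in BC arrays and 4.54, 4.47 and 4.65 in ND arrays. BC array 7 stood highest, and unlike in macrophage genes ND array 9 lay with the other ND arrays. Cdk1, the kinase that drives entry into mitosis, had a difference of 0.87 (adjusted p = 0.132), Mcm6, a subunit of the replicative helicase, of 0.74 (adjusted p = 0.11) and Aurka, a mitotic kinase, of 0.50 (adjusted p = 0.124). In HFD against ND the median was 0.77 and 6 rose (6.54% of all genes did), and the median BC minus HFD difference was -0.05. The count in BC against ND was also 0 without ND array 9. Fam83d, which passed, and H2bc12 were not on this list.

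Cholesterol synthesis genes were likewise higher in BC arrays, with a median of 0.58 over 9 measured genes, 6 of them with BC arrays wholly above ND arrays (9.15% of all genes). None of these 9 passed by limma, 6 had an unadjusted p under 0.05 (15.1% of all genes), and without ND array 9 the count past the threshold was 0 and the median was 0.37. Hsd17b7, an enzyme of the late steps, lay at 5.02, 5.21 and 5.07 in BC arrays and at 4.47, 4.59 and 3.84 in ND arrays (0.80, adjusted p = 0.084). Sqle, the squalene epoxidase, had a difference of 0.70 (adjusted p = 0.0967). Insig1, which holds back the sterol regulator SREBP, lay at 10.37, 10.19 and 10.18 in BC arrays, at 9.74, 10.16 and 9.91 in HFD arrays and at 9.58, 9.65 and 9.44 in ND arrays, and differed by 0.69 in BC minus ND (adjusted p = 0.116) and by 0.38 in HFD minus ND (adjusted p = 0.238). Srebf2, the transcription factor of the pathway, differed by 0.37 in BC minus ND (adjusted p = 0.184) and rose by 0.64 in HFD against ND (adjusted p = 0.0052). In HFD arrays 3 of the 9 rose against ND (6.54% of all genes did), and the median was 0.64.

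**Figure D4:**
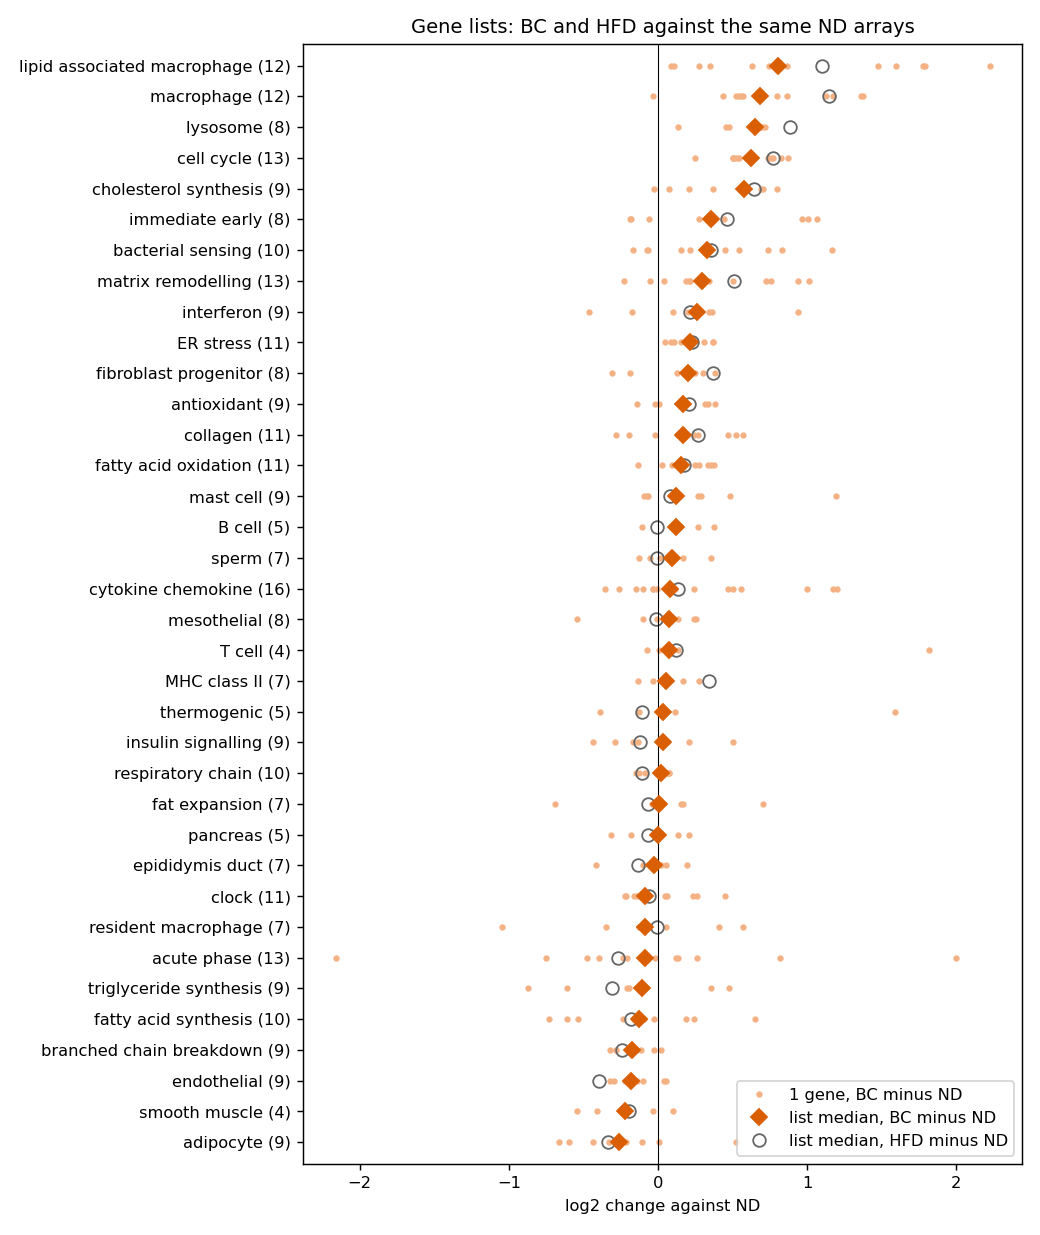
Log2 change against ND (horizontal axis) for gene lists, with the number of measured genes in brackets. Small points are single genes in BC minus ND, diamonds their median in BC minus ND and open circles the median in HFD minus ND. The macrophage, lipid-associated macrophage, lysosome, cell cycle and cholesterol synthesis lists have medians of at least 0.58 in BC with all arrays, below those in HFD. The resident macrophage list has medians of -0.09 in BC and -0.004 in HFD.

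Adipocyte genes were lower in BC arrays in 7 of 9 measured members, with a median of -0.26. In BC against ND 0 passed the threshold and 4 had an unadjusted p under 0.05 (15.1% of all genes). Rbp4, a retinol carrier secreted by fat, lay at 8.64, 8.37 and 8.17 in BC arrays and at 9.16, 9.15 and 8.85 in ND arrays (-0.66, adjusted p = 0.0741). With ND array 9 left out it fell (-0.76, adjusted p = 0.0203). Adipoq, the gene of adiponectin, lay at 9.56, 9.34 and 9.26 in BC arrays and at 9.80, 9.76 and 9.24 in ND arrays. Here ND array 9 was the lowest of all 6 arrays, and the difference was -0.22 (adjusted p = 0.59), and -0.39 without that array (adjusted p = 0.287). Lep, the gene of leptin, was the member higher in all BC arrays, at 11.74, 11.55 and 11.55 against 11.20, 11.21 and 10.86 in ND arrays (0.52, adjusted p = 0.182). In HFD against ND 3 of the 9 fell (2.09% of all genes did), and the median was -0.33. Without ND array 9, 3 of the 9 fell in BC against ND, and the median was -0.43.

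Among enzymes of fatty acid synthesis, Fasn, the fatty acid synthase, lay at 10.82, 10.71 and 10.60 in BC arrays, at 10.79, 10.63 and 10.61 in HFD arrays and at 11.41, 11.43 and 10.90 in ND arrays. BC and HFD arrays overlapped, and all of them lay below the ND arrays. The difference was -0.54 in BC minus ND (adjusted p = 0.0818) and -0.57 in HFD minus ND (adjusted p = 0.0105), with a BC minus HFD interval of -0.24 to 0.31. Acaca, which makes the malonyl-CoA that Fasn uses, differed by -0.73 in BC minus ND (adjusted p = 0.109) and by -0.83 in HFD minus ND (adjusted p = 0.0162). Without ND array 9 both fell in BC against ND (-0.71 and -1.07, adjusted p = 0.00469 and 0.00316). Over the 10 measured genes of the list the median was -0.12, 0 passed with all arrays and 3 had an unadjusted p under 0.05 (15.1% of all genes). Without that array 3 fell and the median was -0.21.

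Elovl6, which lengthens the product of Fasn, was the member whose BC and HFD arrays differed most. It lay at 6.64, 6.69 and 6.44 in BC arrays, at 7.18, 7.27 and 7.22 in HFD arrays and at 7.62, 7.54 and 6.44 in ND arrays. The BC arrays lay below every HFD array and level with ND array 9. The BC minus ND difference was -0.61 (adjusted p = 0.314), the HFD minus ND difference 0.02 and the BC minus HFD difference -0.63 (95% interval -1.22 to -0.05, adjusted p = 0.917). Elovl6 fell in BC against ND when ND array 9 was left out (-0.99, adjusted p = 0.047). In triglyceride synthesis, Pck1, which supplies glycerol for triglyceride, differed by -0.87 in BC minus ND (adjusted p = 0.158). Of 9 measured genes of triglyceride synthesis 0 passed and 3 had an unadjusted p under 0.05 (15.1% of all genes). In the fit without ND array 9 the list median was -0.40 and 1 fell, Gpat3, an enzyme of the first step (-0.97, adjusted p = 0.0495).

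The acute-phase list, which holds Orm3, did not move as one. Its 13 measured genes had a median of -0.09 in BC minus ND, and Orm3 was the 1 that passed. When ND array 9 was left out the median was -0.27 and 2 fell, Orm3 and Serpina1d, a protease inhibitor from a family of close copies (-0.99, adjusted p = 0.0138). Serpina1d lay below the median of every array, at 2.03 to 2.42 in BC and 2.555 to 3.27 in ND. Lcn2, the iron-siderophore binding lipocalin 2, differed in the other direction, with log2 levels of 6.79, 7.25 and 8.52 in BC arrays against 5.91, 6.02 and 4.63 in ND arrays. The groups did not overlap, and the arrays within each group spread widely, BC array 11 and ND array 9 lying at the ends. Its difference of 1.999 ± 0.58 did not pass (adjusted p = 0.117). Lrg1, a leucine-rich glycoprotein of the acute phase, lay at 9.5, 9.47 and 9.58 in BC arrays, at 9.30, 9.17 and 9.18 in HFD arrays and at 8.67, 9.01 and 8.42 in ND arrays (0.82 in BC minus ND, adjusted p = 0.0818).

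Endothelial genes had, of the lists with lower medians in HFD than in ND, the largest BC minus HFD median. The 9 measured genes had a median of -0.18 in BC minus ND, -0.40 in HFD minus ND and 0.38 in BC minus HFD, against medians over all genes of -0.01, -0.04 and 0.01. The mean level was 7.61, 7.53 and 7.48 in BC arrays, 7.28, 7.08 and 7.36 in HFD arrays and 7.78, 7.79 and 7.51 in ND arrays. All BC arrays lay above all HFD arrays, and ND array 9 lay among the BC arrays. Vwf, the clotting factor stored in endothelium, lay at 6.72, 6.70 and 6.69 in BC arrays, at 6.35, 6.16 and 6.43 in HFD arrays and at 6.98, 7.19 and 6.91 in ND arrays. It fell by 0.71 on the log2 scale in HFD against ND (adjusted p = 0.00309), and its BC minus HFD difference was 0.39 (95% interval 0.15 to 0.63, adjusted p = 0.917). Egfl7, a secreted protein of growing vessels, had the same BC minus HFD difference of 0.39 (0.11 to 0.67). In BC against HFD 0 genes of the list passed and 4 had an unadjusted p under 0.05 (5.18% of all genes), and in BC against ND 0 passed and 1 had (15.1% of all genes). With ND array 9 left out the median BC minus ND difference was -0.34, and 0 passed.

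High-fat effects that lay farthest toward ND in BC were picked by the smallest p in BC against HFD, so their values are a description. Clec4a4, a C-type lectin receptor of dendritic cells, headed them. Its log2 level was 2.09, 2.5 and 2.35 in BC arrays, 3.02, 3.09 and 3.20 in HFD arrays and 2.34, 2.62 and 2.30 in ND arrays. The BC arrays thus lay with the ND arrays at the low end of the scale and apart from the HFD arrays. The HFD minus ND difference was 0.69, the BC minus ND difference -0.10 and the BC minus HFD difference -0.79 (95% interval -1.09 to -0.49), with an adjusted p of 0.363. Ms4a4a, a tetraspan protein of macrophages, had differences of 0.64 in HFD minus ND and 0.01 in BC minus ND. Pamr1, a secreted muscle-associated protease-like protein, had 0.54 and 0.06, Trmt112, a partner of RNA methyltransferases, 0.46 and 0.10, and Mtrf1l, a mitochondrial release factor, 0.38 and 0.03.

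In the other direction, lower in HFD and near ND in BC, were Ablim3, Lin28a, Mir212, Amigo2 and H2-M9. Ablim3, an actin-binding protein, had HFD minus ND and BC minus ND differences of -0.50 and 0.10. Lin28a, which blocks maturation of let-7 miRNAs, had -0.39 and 0.10, and Amigo2, an adhesion protein, -0.69 and -0.22. H2-M9, a class I histocompatibility gene from a family of close copies, had -0.84 and -0.14. The levels of H2-M9 in BC, HFD and ND arrays lay below the array medians. So did those of Lin28a in all HFD and ND arrays and in BC arrays 4 and 11. Mir212 lay below them in all HFD arrays, BC array 7 and ND array 9. The adjusted p for BC against HFD was 0.917 in all of these 9 genes other than Clec4a4. Mir212 was the 1 miRNA gene among them, at 4.52, 4.14 and 4.43 in BC arrays, 3.90, 3.75 and 3.81 in HFD arrays and 4.39, 4.83 and 4.21 in ND arrays (-0.66 in HFD minus ND, -0.11 in BC minus ND). The array reads the gene and not the mature miRNA, whose arms are shown from RefSeq (GRCm38.p6, chromosome 11, plus strand) with the seed, bases 2 to 8, in capitals.
mmu-miR-212-5p: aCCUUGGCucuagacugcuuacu
mmu-miR-212-3p: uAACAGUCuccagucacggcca

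**Figure D5:**
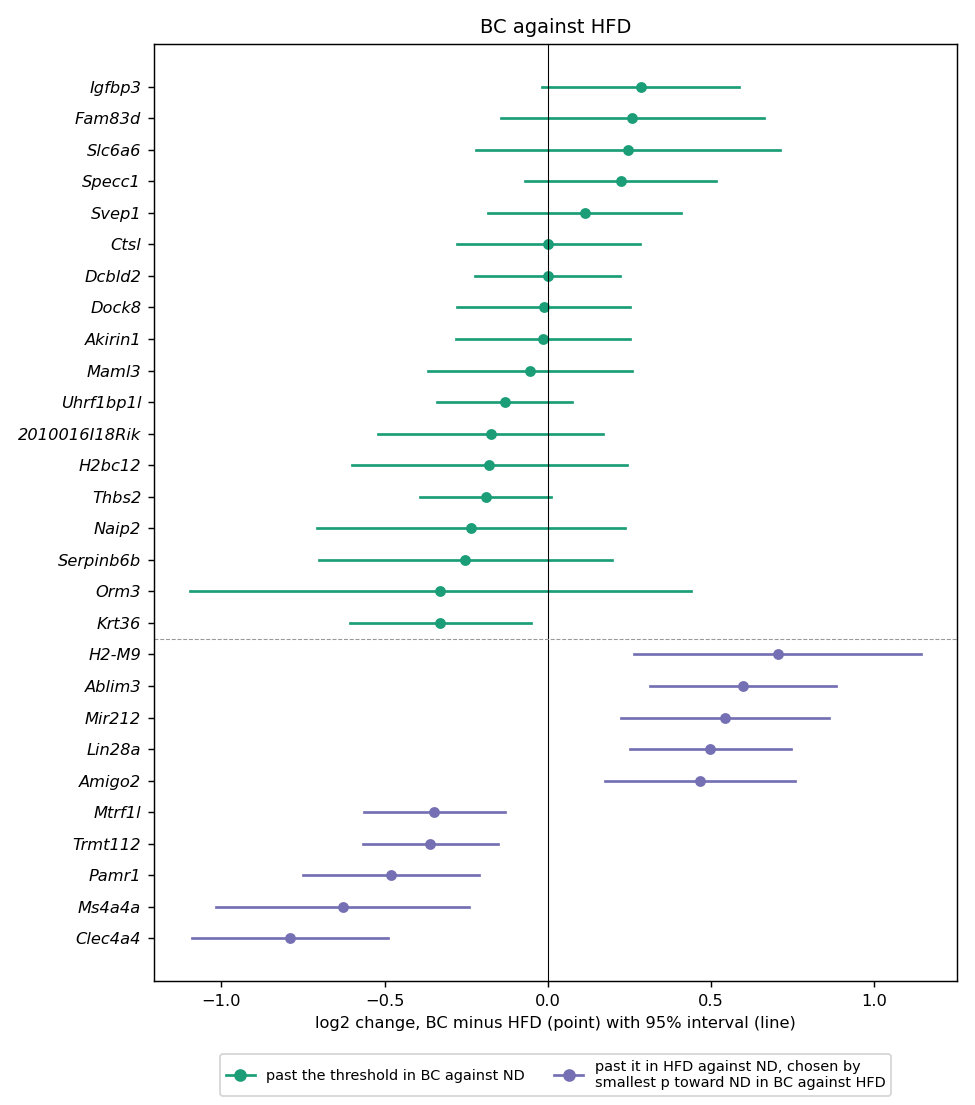
BC minus HFD log2 change (points) with its 95% interval (lines). The upper 18 genes passed in BC against ND, and their intervals, except that of Krt36, include 0. The lower 10 genes passed in HFD against ND and were picked for the smallest p toward ND in BC against HFD, so that their distance from 0 is a result of the choice, and 0 genes passed after adjustment.

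In a panel of 25 measured genes commonly followed in obesity, 0 passed in BC against ND (11 at an unadjusted p under 0.05, against 15.1% of all genes). In HFD against ND 8 of the panel rose (6.54% of all genes) and 2 fell (2.09% of all genes). The panel median was 0.11 in BC minus ND. Leaving out ND array 9, Ccl2, Adgre1, Cd68 and Col1a1 rose and Pparg, Fasn and Acaca fell in BC against ND, and the panel median was 0.09. Cpt1a, which lets fatty acids into mitochondria for oxidation, lay at 8.54, 8.57 and 8.53 in BC arrays, at 8.68, 8.66 and 8.56 in HFD arrays and at 8.25, 8.15 and 8.10 in ND arrays. The groups on the high-fat diet were both above ND, and the difference was 0.38 in BC minus ND (adjusted p = 0.0927) and 0.46 in HFD minus ND (adjusted p = 0.00732). Mrc1, a mannose receptor of resident macrophages, differed by 0.41 and 0.73 (adjusted p = 0.216 and 0.00718). Of the 7 measured genes of resident macrophages 0 passed in BC against ND and 4 had an unadjusted p under 0.05 (15.1% of all genes). Their median was -0.09, and Mrc1 was the 1 that rose in HFD against ND (6.54% of all genes did). Pparg, the master regulator of adipocytes, differed by -0.26 and -0.31, Slc2a4, the insulin-responsive glucose transporter, by -0.44 and -0.49, and Irs1, which passes on the insulin signal, by -0.29 and -0.37, and none of these 3 passed in either comparison with all arrays. Without ND array 9 Pparg fell in BC against ND (-0.43, adjusted p = 0.027), and Slc2a4 and Irs1 differed by -0.69 and -0.56 (adjusted p = 0.0889 and 0.0883). The Pparg level in ND array 9, 8.62, lay below every BC array, so leaving it out enlarges that fall.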

How the data were processed

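RNA of epididymal fat was extracted with Trizol and hybridised to GeneChip whole-transcript arrays, per the labels' protocols. The authors deposited log values, 1 per probe and array, used here as log2. How they summarised and normalized the probes: not given in the sources used here. Of 24292 rows, 24291 were complete. By the platform annotation 17067 probes named 1 gene, 1139 several and 6085 none. For 668 genes with several probes the brightest was used, and 116 Entrez identifiers had no match. The table was held in part, as described above.

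Genes were fitted with limma 3.58.1 (R 4.3.3) over all 21 arrays, 1 coefficient per group, with an intensity trend, two-sided. An exact permutation of 3 against 3 arrays cannot go below p = 0.1. Precision is limited by the number of arrays, 3 per group.

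Named genes were the largest rises and falls past the threshold, without predicted models, the genes described as picked for BC against HFD, and up to 4 members of smallest p per list. Members and the 39 lists (325 of 476 genes measured) were chosen with earlier results of these data known. Alternatives were quantile normalization, median centring, the compared groups only, dim genes left out, no trend, array weights, the mean of probes, every probe, the replicate number as a block, and each array left out. BC and ND share no array number. Same-numbered arrays of HFD and BC had correlated deviations of 0.152 and -0.119, and those of ND and HFD of -0.1. So few correlations cannot tell whether numbers pair arrays, and the main fit used no pairing. Dates and batches were not given in the sources used here.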

Additional observations from a re-analysis of the deposited data

How the results depend on the processing

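No named gene changed direction while past the threshold in any alternative. BC against ND called 66 genes with dim genes left out, 9 with no trend, 629 with array weights, 7 with every probe tested and 0 with the replicate number as a block. Leaving out 1 array gave 1 to 372. It called 26 after quantile normalization, 19 higher and 7 lower in BC, 16 after median centring or with the mean of probes, and 13 with the BC and ND arrays alone. HFD against ND called 774 in the compared groups alone, 2432 with array weights, 524 with the block, 368 to 1457 without 1 array, and 1126 after quantile normalization, 679 higher and 447 lower in HFD. High-fat effects that passed in BC numbered 71 in a fit of the BC, HFD and ND arrays, 61 with dim genes left out, 9 with no trend, 580 with array weights, 7 with every probe, 0 with the block and 1 to 341 without 1 array. BC against HFD called 0 in each alternative run, in which BC or HFD but no ND arrays were left out. Leaving out dim genes lowers the number of tests and leaves out 3 of the 18 genes. Other causes were not tested. Of 184 named genes, 57 gained a call with array weights and 37 without ND array 9, and none without any other single BC or ND array. Scaling moved the median of all genes by under 0.1. Where an array is left out, its group keeps 2 and shares the spread of all groups.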

Other observations

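Of the 9 measured genes of mast cells, which store proteases and histamine, 0 passed in BC against ND and 0 had an unadjusted p under 0.05. Cpa3, their carboxypeptidase, lay at 4.92, 6.17 and 6.52 in BC arrays, at 5.72, 7.90 and 7.496 in HFD arrays and at 4.503, 5.22 and 4.30 in ND arrays. Its difference was 1.19 in BC minus ND (adjusted p = 0.367) and 2.37 in HFD minus ND (adjusted p = 0.0211). The BC and the HFD arrays each spread by more than 1 unit. Of 9 interferon-induced genes 0 passed and 4 had an unadjusted p under 0.05 (15.1% of all genes). Ifi204, a sensor of DNA in macrophages, differed by 0.94 (adjusted p = 0.0612), against 1.46 in HFD minus ND. It was the 1 of the 9 to pass when ND array 9 was left out (0.93, adjusted p = 0.0381). Of 7 genes of MHC class II, which present antigen, 0 passed, 0 had an unadjusted p under 0.05, and the median was 0.05 in BC minus ND and 0.34 in HFD minus ND. H2-Aa lay at 9.26, 9.66 and 9.35 in BC arrays, against 9.34, 9.27 and 9.16 in ND arrays, and overlapped. Il7r, a receptor for interleukin 7 counted here among T cell genes, differed by 1.81 (adjusted p = 0.0886) and passed without ND array 9 (2.60, adjusted p = 0.00244), while the other 3 measured genes of that list lay within 0.13 of 0 and Cd3e, Cd3g and Lck were not analysed here.

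Elovl3, a fatty acid elongase listed with thermogenic genes, lay at 4.68, 4.51 and 4.95 in BC arrays, at 3.53, 4.60 and 3.61 in HFD arrays and at 2.97, 3.41 and 2.99 in ND arrays. The BC arrays were above all ND arrays by more than 1 unit, and 1 of the HFD arrays, number 6, lay with them. The difference was 1.59 in BC minus ND (adjusted p = 0.0622) and 0.79 in HFD minus ND (adjusted p = 0.167). Cidea, a lipid droplet protein of the same list, differed by -0.39 (adjusted p = 0.185), and the list median over 5 measured genes was 0.04. Retnla, a secreted protein of resident fat macrophages, lay at 9.16, 9.09 and 8.16 in BC arrays, below the ND arrays at 9.74, 10.11 and 9.69 (-1.04, adjusted p = 0.117). The 7 measured genes of its list had a median of -0.09 and 0 passed, and Chil3 and Mrc1 differed the other way, by 0.57 and 0.41. Fos, an immediate early gene, differed by 1.06 (adjusted p = 0.125), with ND array 9 at 6.74 above BC array 11 at 6.58, and passed without ND array 9 (1.52, adjusted p = 0.008). In that fit 4 of the 8 measured immediate early genes rose, Fos, Egr2, Egr3 and Atf3, and the list median was 0.53, against 0.36 with all arrays.

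Of 9 measured genes that break down branched-chain amino acids, 0 passed in BC against ND with all arrays, 0 had an unadjusted p under 0.05 and the median was -0.17. Leaving out ND array 9 the median was -0.50 and 4 fell. They were Dbt, a subunit of the branched-chain ketoacid dehydrogenase (-0.61, adjusted p = 0.0202), Mccc1 (-0.50, adjusted p = 0.0258), Pcca, a subunit of propionyl-CoA carboxylase (-0.53, adjusted p = 0.00645), and Aldh6a1 (-0.54, adjusted p = 0.0265). The 4 measured genes of smooth muscle had a median of -0.22 with all arrays and 0 passed, against -0.47 without ND array 9, where Myh11, its myosin heavy chain, fell (-0.80, adjusted p = 0.0359). Their mean level in ND array 9, 6.65, also lay below every BC array, at 6.92, 6.86 and 6.85.

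Among 7224 probes with no single gene symbol, 0 passed by limma in BC against ND when every probe was tested (smallest adjusted p = 0.0788). Of these 7224 probes, 888 had an unadjusted p under 0.05, against 15.1% of all genes in the main fit.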
